A study of Mus musculus with 96 samples.

Results

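The 2 Mb of mouse chromosome 4 from 88000001 to 90000000 (build mm9, NCBI37) hold the type I interferon cluster and, further along, Mtap, Cdkn2a and Cdkn2b. The HindIII fragments whose listed end falls in this interval number 667 of the 48320 listed for chromosome 4. All fragments of the interval were taken, whatever their counts, and the interval itself was chosen with earlier results of these data known. The 2 Mb on either side served for comparison, with 704 fragments in the upstream flank (86 to 88 Mb) and 718 in the downstream flank (90 to 92 Mb).

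PE-4Cseq, circular chromosome conformation capture read by paired-end sequencing, counts ligation products between 1 chosen HindIII fragment, the viewpoint, and all other fragments, here called captures. The cells were mouse embryonic fibroblasts (MEFs) grown from 13.5-day embryos and used confluent at passage 4. Lines 129S5E71 and 129S5E98, below E71 and E98, carried the 4E2 deletion on the chromosome of strain 129S5SvEvBrd and gave the deleted chromosome Df and its intact C57BL/6J homologue +DBl6. Lines 129S5E117 and 129S5E118, below E117 and E118, carried no deletion. They gave +129, the chromosome of 129S5SvEvBrd, and +Bl6, that of C57BL/6J. All lines came from F1 embryos of these strains, and the deletion was heterozygous. Each line is 1 line of cells in culture and each group holds 2 lines, so that tests measure the spread between lines. At the viewpoints outside the deletion n = 2 in each group. At 6 of the 8 viewpoints inside it a group had 1 library after the sums and exclusions given below: +DBl6 at 150.9, 152.1, 152.4 and 152.9, and both +129 and +Bl6 at 153.4 and 153.9. There, and wherever a line is left out, the single library is assumed to vary like the other groups of that viewpoint. Viewpoints are named by their position: 147.9 and 148.9 Mb lie upstream of the deletion, 8 viewpoints from 150.4 to 153.9 Mb inside it, and 154.9 and 155.5 Mb downstream. The locus lay 58.0 to 65.6 Mb from them, so every value below concerns contacts over a very long range.

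Type I interferon genes encode secreted antiviral cytokines, have no introns in most family members, and arose by tandem duplication, so that neighbouring copies resemble each other. Ifnb1 and the Ifna genes are switched on in infected fibroblasts, and Ifne is expressed in epithelia. Cdkn2a encodes, from overlapping reading frames, the cell cycle inhibitor p16Ink4a and p19Arf, a protein that stabilises p53, and Cdkn2b encodes the related inhibitor p15Ink4b. These are known for their rise during passage of cultured fibroblasts and for their loss in tumours, often together with Mtap, an enzyme of methionine salvage. Expression of these genes was not analysed here.

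The annotation (GENCODE vM1) placed 67 genes in the interval, 41 of them protein-coding. Of the protein-coding genes, 15 carry an interferon symbol, from Ifnb1 at chr4:88167929-88168698 to Ifne at chr4:88525442-88526105, and another 16 between them are predicted genes with Gm numbers. Cdkn2a lies at chr4:88920377-88940557 and Cdkn2b at chr4:88952198-88956941, both on the minus strand. Distal of Cdkn2b only 2 protein-coding genes are annotated over 1043 kb, Dmrta1, a DM-domain transcription factor, and the zinc finger gene Zfp352. The upstream flank holds 12 protein-coding genes and the downstream flank 3.

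The sequences around the captured sites show what a count stands for. A read was placed by the 30 bases that border a HindIII site. Across chromosome 4 the counts of a listed fragment followed mainly the borders on both sides of the site at its listed end. Fragments whose listed end had both borders unique in the genome were captured in a mean of 5.00 of 96 libraries even where the border at their other end was repeated, against 0.914 in the reverse case and 9.48 where all borders were unique. With a single unique border the mean was 2.47 or 2.34 at the listed end and 0.914 at the other end. Fragments with no unique border had 0.142, so the border at the other end also went with captures. Each count is therefore described here as that of a HindIII site, named by its last base. Below are the most captured site of each block of the locus, with the runner-up of the whole locus between Ifne and Mtap, printed on the plus strand with the HindIII site in capitals and 24 bases on each side.
Ptplad2, intron, chr4:88070768-88070821: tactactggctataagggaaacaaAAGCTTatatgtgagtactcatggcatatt
Ifna1 side of the interferon block, chr4:88492970-88493023: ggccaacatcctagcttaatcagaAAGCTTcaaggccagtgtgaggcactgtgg
Ifne to Mtap, first, chr4:88587588-88587641: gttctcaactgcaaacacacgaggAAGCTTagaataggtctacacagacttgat
Ifne to Mtap, second, chr4:88597157-88597210: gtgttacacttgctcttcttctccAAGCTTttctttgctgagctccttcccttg
INK4/ARF block, chr4:88903703-88903756: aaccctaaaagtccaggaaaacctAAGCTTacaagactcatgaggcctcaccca
Gm12610, distal of Cdkn2b, chr4:89113934-89113987: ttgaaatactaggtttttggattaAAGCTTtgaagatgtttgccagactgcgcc

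Each of these 6 sites had both borders unique in the genome, even with up to 3 mismatches. A pair of sites inside the tandem array of interferon zeta-like genes, shown next, had none, and no library captured either of them.
Gm13283, first, chr4:88414718-88414771: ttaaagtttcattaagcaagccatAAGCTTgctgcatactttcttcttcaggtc
Gm13283, second, chr4:88414817-88414870: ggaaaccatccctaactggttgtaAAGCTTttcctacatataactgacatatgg
The border on the lower side of the first site occurred 260 times among all HindIII borders of the genome and that on its upper side 9 times. The second site, 99 bases on, had 3 copies of its lower and 105 of its upper border.

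The libraries that entered held 64058 to 3969613 chromosome 4 reads and 1259 to 8360 captured sites each. The 16 Df libraries of viewpoints inside the deletion and 2 libraries under 10000 reads were left out, and 6 pairs of replicate libraries whose distant log reads correlated above 0.9 were each summed and counted once, which left 72 libraries. Alleles of the same line and viewpoint were not independent. Of 2013 captures in the locus where both alleles were read, 558 (27.7%) were found on both, and in 422 of those the weaker allele held under 10% of the reads. Leaving out captures on such a weaker allele gave a log2 ratio of the locus to its flanks of 0.34 ± 0.18 (SD, n = 4 lines), beside 0.35 ± 0.17 with them. Reads carry no molecular identifiers, so intervals cover counting error only.

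Pooled over viewpoints, the locus was captured as often as its upstream flank and more often than its downstream flank. It gave 3026 captures and 108376 reads, and 520 of its 667 sites (78.0%) were captured at least once. The capture rate, the number of captures per 1000 site-libraries (each site in each library counting once), was 63.0 in the locus, 64.2 in the upstream flank and 36.5 in the downstream flank. By line, the locus was captured at 33.3 in E71, 71.5 in E98, 60.8 in E117 and 82.3 in E118. The downstream flank had 22.9, 30.5, 34.5 and 51.7 in the same order, below the locus in all 4 lines. The upstream flank had 33.6, 64.5, 61.4 and 89.0, above the locus in 3 lines and below it in E98.

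Against both flanks together, the log2 ratio of capture rates was 0.35 ± 0.17 (SD, n = 4 lines), a rate 1.28 times higher in the locus. All 4 lines had a positive ratio, from 0.23 in E118 to 0.59 in E98, and the exact two-sided sign-flip test gave p = 0.125, the smallest p that 4 lines allow. The lines were not fully separate, since summed pairs put reads of E98 under E71 and reads of E118 under E117. With all libraries as labelled the ratio was 0.32 ± 0.08 (SD, n = 4 lines). It was then 0.29 in E71, 0.40 in E98, 0.35 in E117 and 0.23 in E118. Against the downstream flank alone the log2 ratio was 0.81 ± 0.30 (exact sign-flip p = 0.125, n = 4), and against the upstream flank alone 0.00 ± 0.11 (exact p = 1.00, n = 4). Reads gave a less even picture: the log2 ratio to both flanks was 0.17 ± 0.36, positive in 3 lines and -0.31 in E71 (exact p = 0.50, n = 4). Among the 20 windows of 2 Mb from 68 to 108 Mb, ranked by capture rate, the locus was number 10, the upstream flank number 9 and the downstream flank number 15. The median of these windows was 60.2, with a range from 27.2 to 157, which places the locus near the middle of its surroundings.

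Low rates like that of the downstream flank were already present in the last part of the locus. In bins of 0.25 Mb the rate was 73.1 and 63.1 over the first 0.5 Mb, was 101 in the next bin, which holds Ifne and Mir31, and 88.8 and 92.6 in the 2 bins after it, the first of which holds Mtap, Cdkn2a and Cdkn2b. The last 3 bins of the locus had 45.7, 34.4 and 18.9, and the first bin of the downstream flank 24.5. The last bin was below each of the first 5 in every line. Line E98, for example, had 129 in the fifth bin, 41.7 in the sixth and 15.6 in the seventh.

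**Figure D1:**
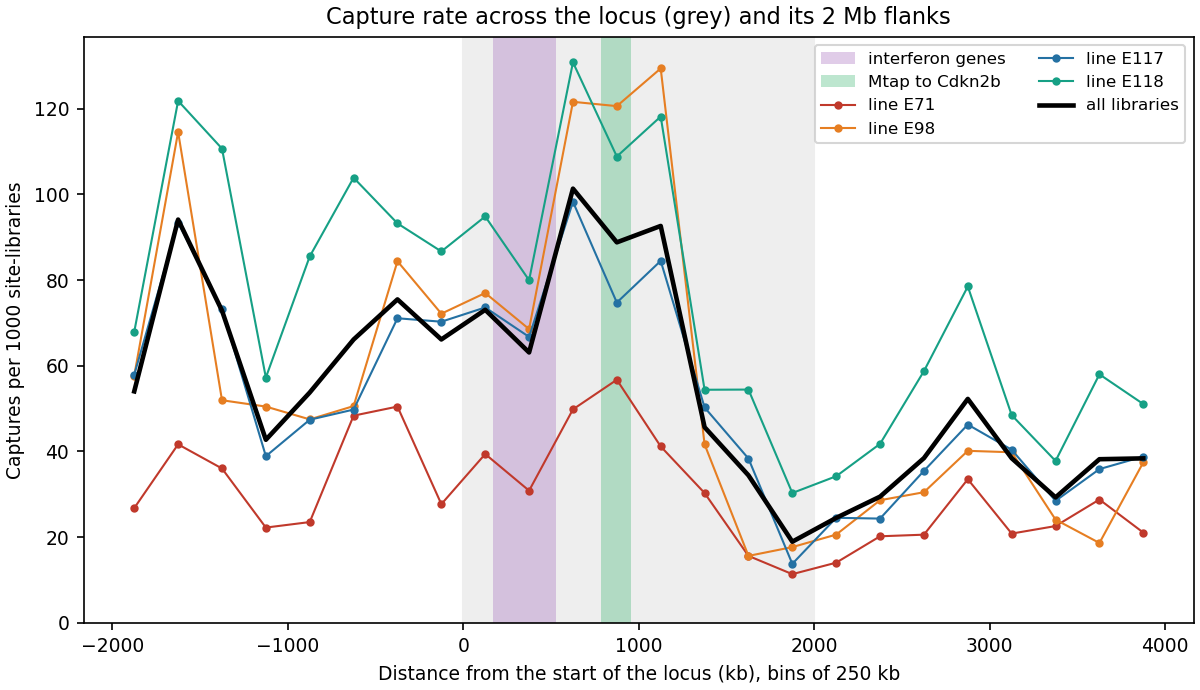
Captures per 1000 site-libraries (y axis) in bins of 250 kb, placed by distance from the start of the locus (x axis, kb), for each MEF line and for all 72 libraries together. The locus is grey, the interferon genes purple and the stretch from Mtap to Cdkn2b green; the pooled rate is 101 in the third bin of the locus and 18.9 in its last.

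Divided by gene content, the blocks differed more from each other than the locus did from its upstream flank. The interferon block, from Ifnb1 to Ifne over 358 kb, had 129 sites and a capture rate of 59.9. The stretch from Ifne to Mtap, 257 kb with the microRNA gene Mir31 and the long non-coding Gm12602, had the highest rate of the blocks, 113. The INK4/ARF block, 174 kb from Mtap to Cdkn2b, had 82.2, and the short stretch upstream of Ifnb1 had 83.1. Distal of Cdkn2b the rate was 86.1 as far as the end of Dmrta1 and 26.6 beyond it, where 228 sites gave only 436 captures. Those limits at Dmrta1 were set after the rates had been seen, and differences between blocks were not tested.

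The levels differed between lines, as they did over the whole chromosome, and the highest and lowest block were the same in all 4. From Ifne to Mtap the rate was 62.5 in E71, 144 in E98, 106 in E117 and 141 in E118, the highest of the blocks in each line. The interferon block had 29.6, 59.4, 62.4 and 79.6 in that order, below the INK4/ARF block (44.4, 110, 69.6 and 107) in all 4 lines. The stretch beyond Dmrta1 had the lowest rate in every line, from 14.8 in E71 to 41.3 in E118.

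**Figure D2:**
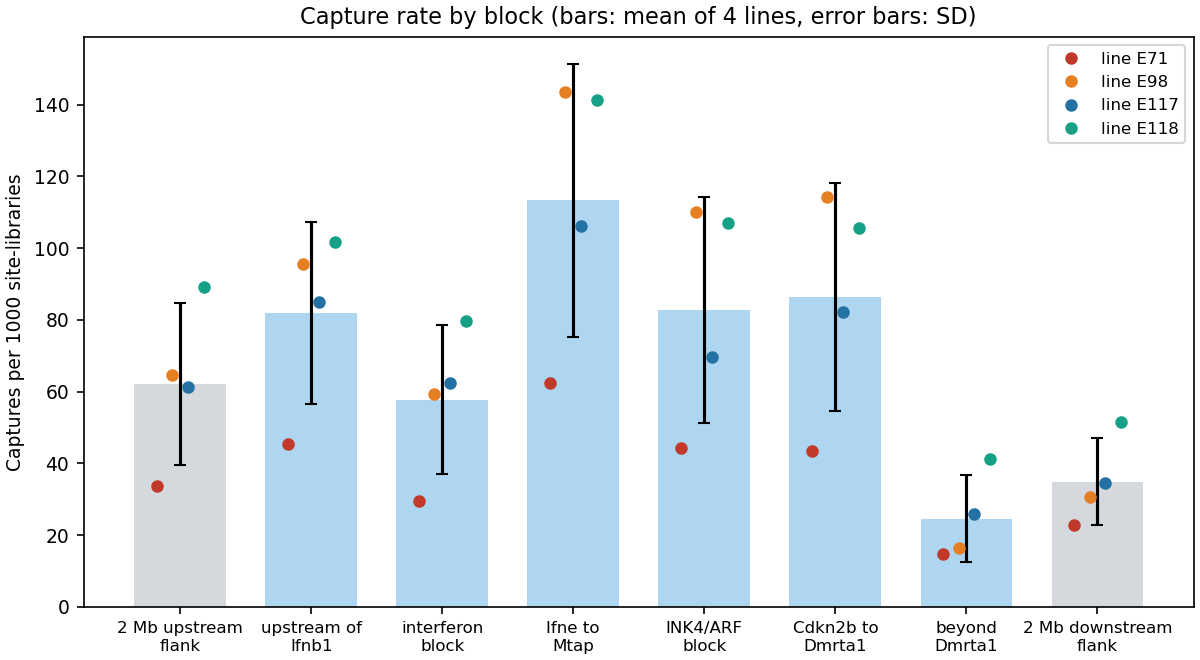
Captures per 1000 site-libraries (y axis) for each block of the locus and for its 2 Mb flanks (x axis); bars are the mean of 4 MEF lines, error bars the SD, and points the lines. Ifne to Mtap is highest and the stretch beyond Dmrta1 lowest in each line.

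Repeated sequence took some of the sites out of view. In the locus 82 sites (12.3%) had no border unique in the genome, against 5.40% in the upstream and 12.4% in the downstream flank. These 82 sites gave 40 captures, a rate of 6.78, and the 527 sites with both borders unique gave 2893, a rate of 76.2. The share of sites without a unique border was 13.2% in the interferon block and 12.9% in the INK4/ARF block. Allowing 3 mismatches it was 32.6% and 19.4%, the highest of the blocks being the interferon block. With sites of 2 unique borders only, the interferon block had a rate of 74.9, Ifne to Mtap 124, the INK4/ARF block 96.2 and the stretch beyond Dmrta1 35.2. The upstream flank then had 69.7, below the whole locus at 76.2, and the downstream flank 41.7.

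Single sites spread over a wide range. No library captured 147 of the 667 sites, of which 63 had no unique border. Another 78 were seen in 1 library, the median was 3 libraries, and 96 sites were captured in at least 10. The most captured, at 88587617 between Ifne and Mtap, was found in 23 of 72 libraries, from 9 of 12 viewpoints, with 2869 reads. Line E71 did not capture it at all, E98 did in 5 libraries, E117 in 7 and E118 in 11. Its neighbour at 88597186 was also found in 23 libraries, with 3, 6, 9 and 5 in the same lines and 945 reads in all. Both lie in no annotated gene.

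The remaining most captured sites fell in every block. The site at 88070797 in Ptplad2, a gene of fatty acid elongation, was found in 22 libraries, and that at 89113963, inside the non-coding gene Gm12610, in 21. In the interferon block the leading site, at 88492999 and 2.99 kb from Ifna1, was captured in 19 libraries with 2273 reads. In the INK4/ARF block it was the site at 88903732 inside the non-coding Gm12606, 16.6 kb from Cdkn2a, with 18 libraries and 880 reads. The other 4 of the 10 most captured sites were found in 18 or 19 libraries, 3 of them between Ifne and Mtap and 1 distal of Cdkn2b. None of the 10 lies in an annotated exon, and all have 2 unique borders.

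**Figure D3:**
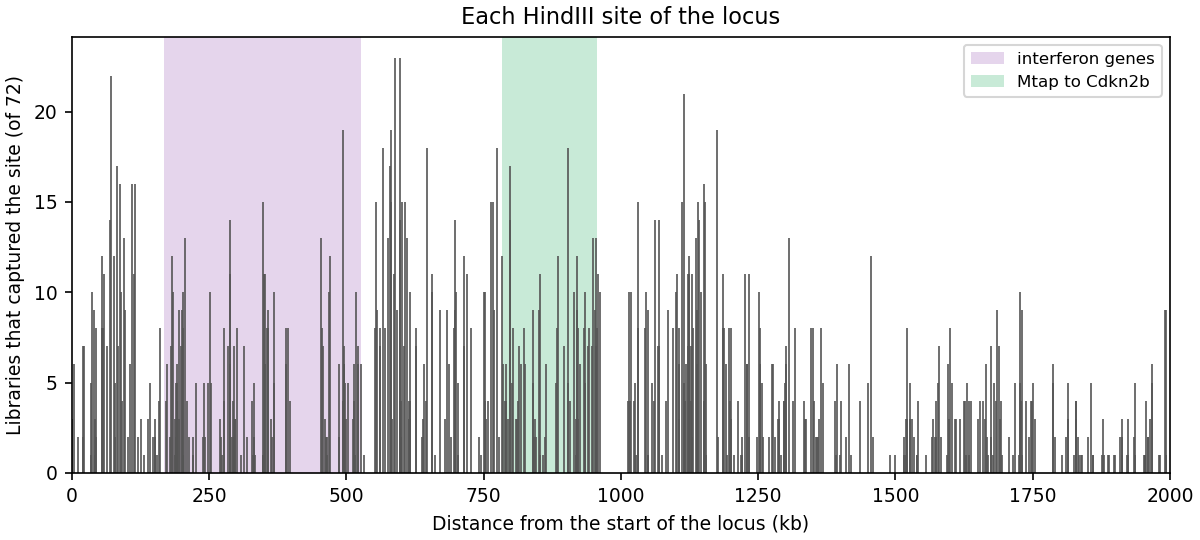
Number of libraries (y axis, of 72) that captured each HindIII site of the locus, placed by distance from the start of the locus (x axis, kb). Each bar is 1 site. The 2 tallest, 23 libraries each, stand between the interferon genes (purple) and Mtap to Cdkn2b (green), and sites become sparse in captures toward the end.

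Often captured sites shared a position and a geometry. Of the 94 sites with 2 unique borders that were captured in at least 10 libraries, 90 (95.7%) lay in the first 1.25 Mb of the locus. The share was 61.5% of 379 sites captured in 1 to 9 libraries and 33.3% of 54 never captured. The limit of 1.25 Mb lies where the bin rates above drop from 92.6 to 45.7. These shares therefore restate the same captures. The nearest DpnII site, the cut that closes the captured circle, was a median of 110 bases away in the first class, 176 in the second and 222 in the third. The farther of the DpnII sites on either side was at a median of 305, 615 and 952 bases. GC content over 1 kb was 40.2% ± 4.5 (SD), 39.6% ± 4.7 and 38.8% ± 4.7 over the same classes, differences smaller than the spread within each. The share of sites whose borders stayed unique with 3 mismatches, the number the read mapping allowed, was 91.5%, 84.2% and 59.3%. These are descriptions of the sites, and their part in the rates was not tested.

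The interferon genes had a rate of 58.3, beside 63.0 over the locus. For each gene the listed fragments that it overlaps were taken, each with the count of the site at its listed end. Part of such a count comes from the border on the far side of the site, which belongs to the next fragment, so a gene's count is that of nearby sites. Of 15 interferon genes, 14 have no HindIII site inside. The median was 4 captures a gene, against 3 libraries a site over the 667 sites of the locus. Ifna14 and Ifna2 had no capture, 2 of 15 genes beside 147 of the 667 sites, while 9 genes had 1 to 5 captures and 4 had 6 or more. Ifnb1, the fibroblast interferon, lies on a fragment of 11.8 kb whose listed site was captured in 4 libraries from 3 line and viewpoint combinations. Ifna12 and Ifna11 had 10 captures each and Ifne 6. Ifnz had the most of the class, 13 captures with 262 reads, at the listed site of a fragment of 39.3 kb that overlaps 13 protein-coding genes of the zeta-like array, so that the count cannot be assigned to any of them. Ifna5 and Ifna6 share a fragment of 16.5 kb, whose listed site has no unique border and was captured in 2 libraries.

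The Cdkn2 genes had a higher rate than the interferon genes. The listed sites of their 11 fragments were all captured at least once, beside 520 of the 667 sites (78.0%) of the locus. Their rate was 106, beside 63.0 over the locus. This was not particular to these genes: Ifne to Mtap had 113 with 94.4% of sites captured, and Cdkn2b to Dmrta1 86.1 with 94.2%. Cdkn2a had 47 captures at 7 sites, and the best of them, at 88934817, was captured in 10 libraries. Cdkn2b had 37 captures at 4 sites, and its best, at 88954294, was captured in 13 libraries with 518 reads. Mtap next to them had 116 captures at 18 sites, a rate of 89.5, with 17 libraries at its best site. The 24 other protein-coding genes together had a rate of 80.4. Among these Klhl9, an adaptor of a ubiquitin ligase inside the interferon cluster, had 15 captures at 2 sites, Dmrta1 29 at 7 and Zfp352 2 at 4. The listed site of the fragment that holds Mir31 was captured in 8 libraries.

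All viewpoints captured the locus, at rates from 26.4 (viewpoint 152.9) to 120 (viewpoint 151.6), with a median of 52.8. Over the whole chromosome the same 2 viewpoints had rates of 59.7 and 156, so much of this range goes with the yield of the libraries. The locus was above its downstream flank at 9 of 12 viewpoints. At viewpoints 152.1, 152.4 and 152.9 it was below, with 48.6 against 54.3, 46.2 against 51.3 and 26.4 against 33.1. At these 3 viewpoints the +DBl6 pair had been summed to 1 library, as it had at 150.9, where the locus was above with 49.2 against 37.0. Against the upstream flank, the locus was above at 4 of 12 viewpoints. Viewpoint 150.4 captured the locus at 100 and the downstream flank at 35.7, and viewpoint 148.9 at 31.7 and 12.5.

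By chromosome, the question was whether the deletion, over 58 Mb away, went with a change in contacts of the locus on the deleted chromosome or on its homologue. It was addressed at the viewpoints outside the deletion, 147.9, 148.9, 154.9 and 155.5, where all 4 chromosomes give libraries. The locus share is the percentage of captured sites of chromosome 4, outside 20 kb around the viewpoint, that lie in the locus. This total includes the deleted interval on +129, +DBl6 and +Bl6, which Df lacks. The deletion also brings 154.9 and 155.5 nearer to the locus on Df. On Df it was 0.817% in E71 (72 of 8815 sites, 95% Wilson interval 0.649 to 1.03%) and 0.968% in E98 (179 of 18483). On +129 it was 0.859% in E117 (141 of 16416) and 0.953% in E118 (220 of 23074). The values of Df and +129 overlapped, with means of 0.893% ± 0.107 and 0.906% ± 0.067 (SD, n = 2; exact permutation p = 1.00, two-sided). With the total taken only from sites before 140 Mb, which leaves out the deleted interval, Df minus +129 was -0.0017 percentage points. The sums include 154.9, where libraries of E71 and E117 may not be independent. Without that viewpoint Df minus +129 was 0.0037 percentage points.

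On the homologue the means stood further apart. The share was 0.602% in E71 (59 of 9799 sites) and 0.818% in E98 (162 of 19794) on +DBl6, and 0.855% in E117 and 0.880% in E118 on +Bl6. The groups did not overlap, +DBl6 being lower, with means of 0.710% ± 0.153 and 0.868% ± 0.018 (SD, n = 2; exact permutation p = 0.333, the smallest p that 2 lines against 2 allow). Within the purification batches, the difference was -0.25 percentage points for the kit (E71 and E117) and -0.06 for the beads (E98 and E118), so most of it came from E71. Most of it also came from viewpoint 155.5: without that viewpoint the difference was -0.045 percentage points and the groups overlapped (exact permutation p = 1.00, n = 2). By reads in place of captured sites it was -0.012 (exact permutation p = 1.00, n = 2). The lines E71 and E117 had fewer captured sites than E98 and E118 on both chromosomes.

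The control chromosomes differed little from each other. Within E117 the share on +129 exceeded that on +Bl6 by 0.004 percentage points and within E118 by 0.073. Over both lines the means were 0.906% and 0.868% (exact permutation p = 0.667, n = 2, two-sided), a test that does not pair the alleles of a line. Paired by line, the exact sign-flip test gave p = 0.50, the smallest p that 2 lines allow.

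Set against both flanks instead of the chromosome, the capture rate of the locus on Df was 2.07 times that of the flanks in E71 and 1.67 times in E98, above +129 at 1.49 in E117 and 1.39 in E118. This difference of 0.44 had an exact permutation p of 0.333 (n = 2, two-sided), again the smallest possible. Beside it, the locus shares above overlapped, and the upstream flank held 0.499% and 0.812% of captured sites on Df against 0.743% and 0.971% on +129. The downstream flank held 0.340% and 0.422% on Df, both below the 0.487% and 0.494% on +129. On +DBl6 the ratio was 1.20 and 1.39, and on +Bl6 1.41 and 1.37, which overlapped (exact permutation p = 0.667, n = 2).

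The make-up of the locus is given over both lines of a group and by line. The interferon block took 16.3% of the captures of the locus on both Df (41 of 251) and +129 (59 of 361), 16.7% on +DBl6 (37 of 221) and 18.7% on +Bl6 (67 of 359). Its share on Df was 22.2% in E71 and 14.0% in E98, on either side of +129 in E117 (19.1%) and E118 (14.5%). Ifne to Mtap took from 18.7% on +Bl6 to 23.9% on Df, and the INK4/ARF block from 11.9% on +129 to 15.8% on +DBl6. The stretch distal of Cdkn2b took 35.3 to 36.8% in the totals, but 26.4% in E71 and 39.1% in E98 on Df, and 64 of 149 captures in E117 and 67 of 210 in E118 on +Bl6. These shares are descriptions and were not tested.

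**Figure D4:**
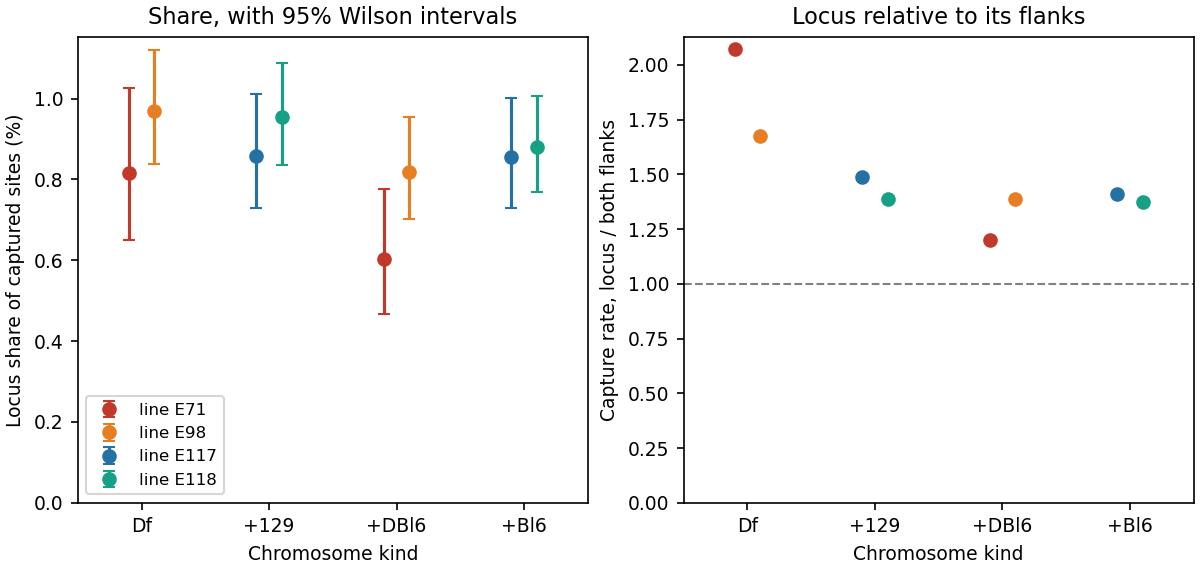
Left, percentage of captured sites of chromosome 4 that lie in the locus (y axis), with 95% Wilson intervals, for each line on each chromosome kind (x axis), summed over the 4 viewpoints outside the deletion. Right, capture rate of the locus divided by that of both flanks, with a dashed line at 1; Df lies at 2.07 and 1.67 and +129 at 1.49 and 1.39.

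Reads summed in windows of 2 Mb gave the test per viewpoint. With edgeR and Benjamini-Hochberg adjustment over all windows of a comparison, 9 of 308 windows (2.92%) passed 0.05 for Df against +129, 8 lower and 1 higher. Of these, 7 were windows starting at 150 or 152 Mb, which the deletion removes. The locus window passed at 0 of 4 viewpoints. For +DBl6 against +Bl6, 0 of 919 windows (0%) passed, with 59 at an unadjusted p under 0.05 and 26 adjusted calls by DESeq2. For +129 against +Bl6, 0 of 919 (0%) passed, with 31 at an unadjusted p under 0.05 and 7 adjusted calls by DESeq2. With the MEF line as replicate block the latter comparison had 4 calls, none of them the locus. Without line E98 there were 23 calls for Df against +129 and 10 for +DBl6 against +Bl6, and without E118 there were 3 for each of the comparisons against +Bl6.

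For Df against +129 the direction of the locus window differed between viewpoints. At 147.9 the locus had 4109 RPM (reads per 1000000 library reads, TMM-scaled) in E71 and 5836 in E98 on Df, above 1809 in E117 and 3878 in E118 on +129, a log2 fold change of 0.81 ± 0.55 (SE; edgeR adjusted p = 0.98). At 148.9 Df had 5664 in E71 but 542 in E98, and +129 had 1572 and 1491 (log2 fold change 1.02 ± 0.95, edgeR adjusted p = 0.98). The Df lines thus lay on either side of +129. At 154.9 the values were 4875 and 3230 on Df and 5187 and 2233 on +129, a log2 fold change of 0.13 ± 0.67 (SE). At 154.9 Df of E71 and +129 of E117 shared 61.3% of the captured sites of the smaller library, as given above. The values 4875 and 5187 may therefore not be independent. At 155.5 they were 1572 and 3976 on Df and 3686 and 5732 on +129, a log2 fold change of -0.77 ± 0.44 (edgeR adjusted p = 0.97). Without line E98, which leaves E71 alone for Df, the window passed at 148.9 with a log2 fold change of 2.15 and at 155.5 with -1.58.

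On the homologue, the groups stood apart at viewpoint 155.5 without passing the adjusted test. The locus had 1152 RPM in E71 and 2590 in E98 on +DBl6, and 6568 in E117 and 4355 in E118 on +Bl6. Every +DBl6 library was below every +Bl6 library, with a log2 fold change of -1.55 ± 0.45 (SE) and an unadjusted edgeR p of 0.0022, but the adjusted p was 0.43. Captured sites in the locus numbered 16 in E71 and 37 in E98 on +DBl6, of 3412 and 5216 on the chromosome, and 55 in E117 and 63 in E118 on +Bl6, of 5539 and 6138. These groups did not overlap either, with an edgeR adjusted p of 0.60. This window passed 0.05 with total-read scaling, at a log2 fold change of -1.77, and without line E98, at -2.24, which leaves E71 alone for +DBl6. Under the other alternatives run its adjusted p was 0.057 to 0.998, being 0.17 with DESeq2 and 0.10 with the replicate block. At 147.9 and 154.9 the log2 fold changes were 0.71 ± 0.55 and 0.77 ± 0.67, in the other direction, and at 148.9 it was -0.59 ± 0.94. At 154.9 the +DBl6 library of E71 and the +Bl6 library of E117 may again not be independent.

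**Figure D5:**
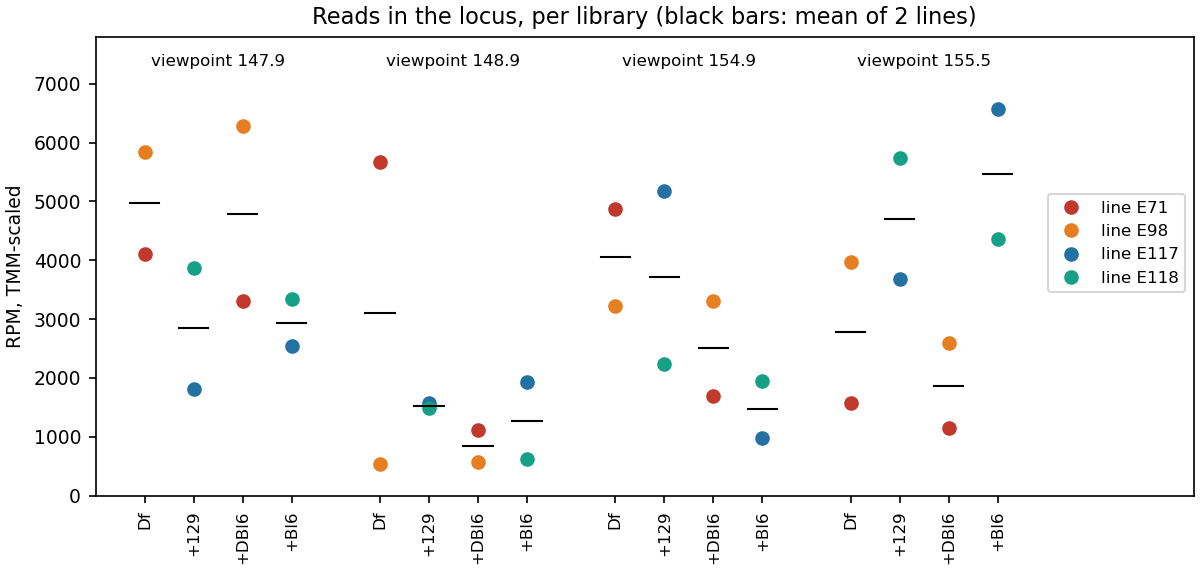
RPM of the locus (y axis, TMM-scaled, reads within 20 kb of the viewpoint left out) in each library of the 4 viewpoints outside the deletion, by chromosome kind (x axis); points are MEF lines and black bars the mean of 2. At viewpoint 155.5 both +DBl6 libraries, 1152 and 2590, lie below both +Bl6 libraries.

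Over all 12 viewpoints, +DBl6 against +Bl6 gave log2 fold changes of the locus window from -1.58 to 0.77, higher at 4 viewpoints and lower at 8. The lowest, at viewpoint 150.9, was -1.58 ± 0.36 (SE; edgeR adjusted p = 0.45), with 583 RPM in the summed +DBl6 library against 1890 and 1587 on +Bl6. That value rests on 1 library on the +DBl6 side. With all libraries as labelled this window passed, with an edgeR adjusted p of 0.030, and with DESeq2 its adjusted p was 0.032. +129 against +Bl6 ranged from -0.53 to 1.34, higher at 5 viewpoints and lower at 7, with no unadjusted p under 0.05. The flank windows passed in none of the 3 comparisons. When counts were simulated in 2 Mb windows, the fit found 23% of windows altered 4-fold for +DBl6 against +Bl6, 34.4% for +129 against +Bl6 and 45.7% for Df against +129. Of windows altered 16-fold it found 69.8%, 75.9% and 76% in that order. The altered windows were drawn from the whole chromosome, also near the viewpoint, with a common dispersion per viewpoint. These percentages therefore do not give the recovery at the locus window.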

How the data were processed

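The authors digested cross-linked chromatin with HindIII and DpnII, amplified circles from each viewpoint and sequenced both ends. They trimmed the interacting read to 30 bases and aligned it with bowtie to borders of HindIII sites of NCBI37/mm9, with at most 3 mismatches and unique hits only. Each deposited value is an unscaled count of the reads that the authors assigned to 1 allele and 1 listed fragment. Tables of the authors' own differential regions were not used. DNA was purified with a kit for E71 and E117 and with beads for E98 and E118.

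The 48319 HindIII sites of the NCBIM37 reference matched the listed ends, the last listed end being the chromosome end. Libraries under 10000 reads were left out, and replicate libraries with a correlation above 0.9 of log reads at shared sites over 1 Mb from the viewpoint were summed, under the line listed first. Border sequences were compared with all 1684130 HindIII borders of the genome. Sites are shown by the most libraries that captured them, then by reads; genes are all protein-coding genes of the interval, with values for the leading fragments of each class. Windows of 2 Mb with at least 10 reads in 50% of libraries were tested per viewpoint with edgeR 4.0.16 in R 4.3.3 (quasi-likelihood, TMM, threshold 0.05), with DESeq2 1.42.0 as an alternative, and exact tests ran over lines in Python 3.11.15. An SE is the log2 fold change divided by the root of edgeR's F. On simulated counts the fit left 4.3 to 6.45% of unaltered windows at an unadjusted p under 0.05. The same control line gives +129 and +Bl6, so the replicate numbers pair those samples by label; E117 minus E118 correlated between both alleles at 0.02 to 0.45 over 10 viewpoints. The interval, lists and tests were chosen with earlier results of these data known.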

Additional observations from a re-analysis of the deposited data

Results flagged for a closer look

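The 16 Df libraries of viewpoints inside the deletion enter no comparison, since their viewpoint lies in sequence that the deleted chromosome lacks. They still held 97 reads in the locus, above the 3 that a count of 0 allows, at 75 captured sites in 14 libraries. Of these captures, 43 (57.3%) were at sites also captured on +DBl6 of the same line and viewpoint, where the locus had 25346 reads and 501 captures. The Df reads were 0.381% of the reads of both alleles. Their origin was not tested. No value over 4 lines stood far enough from the others to be listed.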

How the results depend on the processing

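The log2 ratio of the locus to its flanks was 0.81 with the downstream flank alone, close to 0 (0.00) with the upstream flank alone, and 0.17 to 0.45 under the other alternatives run, with 0.27 to 0.39 without each replicate in turn. No setting could bring its exact p under 0.05 with 4 lines. Leaving out captures on an allele with under 10% of the reads of both was chosen after seeing the data.

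The locus share differed between Df and +129 by -0.01 percentage points and turned positive with reads (0.062), without viewpoint 148.9 (0.031) or 154.9 (0.0037), and without weak alleles (0.023), with -0.089 to 0.062 without each replicate. The difference was -0.0017 with the total taken before 140 Mb. In the other settings, reads included, the total held the deleted interval on +129 only. +129 minus +Bl6 became -0.0062 without viewpoint 147.9, and +DBl6 minus +Bl6, -0.16, was negative under each alternative run but came to -0.012 with reads and -0.045 without viewpoint 155.5, where the groups overlapped, and to -0.27 to -0.05 without each replicate.

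Calls among all 2 Mb windows for Df against +129 numbered 9, 3 with captured sites, 70 with 80 kb windows and 7 to 23 without each replicate. For +DBl6 against +Bl6 they numbered 0, 5 with captured sites, 26 with DESeq2, 10 with total-read scaling, 14 with 80 kb windows, 24 with all libraries as labelled and 0 to 10 without each replicate. For +129 against +Bl6 they numbered 0, 7 with DESeq2, 4 with the replicate block and 0 to 3 without each replicate. The replicate block gave 8 calls for Df against +129 and 0 for +DBl6 against +Bl6, where purification batches were the pairs.

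Locus windows called for Df against +129 numbered 0 to 2 without each replicate. For +DBl6 against +Bl6 there was 1 with DESeq2, 1 with total-read scaling, 1 with all libraries as labelled and 0 to 1 without each replicate. No 80 kb window of the locus passed in any comparison. The log2 fold change of the locus for Df against +129 changed sign with captured sites at 148.9 (-0.13), 154.9 (-0.082) and 155.5 (0.15), and with DESeq2 at 154.9 (-0.068). Without each replicate it ran from -1.45 to 2.15 at 148.9 and from -0.39 to 0.84 at 154.9. For +DBl6 against +Bl6 at 148.9 it was 0.040 with captured sites and ran from -1.41 to 0.53. The causes were not tested. With 2 lines a group and few captures per library, differences within these ranges could not be resolved.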
